A study of Mus musculus with 7 samples.

Results

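Cells that carried transcripts of resident-type macrophages, Lyve1, Folr2, Timd4 and Cbr2, were selected on their measured UMIs in mouse heart leukocytes after myocardial infarction. A barcode was a member, here called a rule cell, if it had at least 3 UMIs (unique transcript counts) of those 4 genes together, at least 3 UMIs of C1qa, C1qb and C1qc together, and fewer than 3 UMIs of the B cell gene Cd79a. Barcodes with fewer than 200 genes, or with mitochondrial UMIs above 10%, were left out, and 4763 of 4942 barcodes stayed. The rule found 784 rule cells among the 4763. Because measured UMIs of these 8 genes chose the cells, their levels are given as description only.

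The 5 libraries were CD45+ leukocytes of male C57BL6/J mice, 1 library per time point, run on 10x Genomics 3' version 2 chemistry. Each held pooled hearts: 5 mice without infarction (steady state), and 5 mice each at days 1, 3 and 5 and 3 mice at day 7 after infarction. Infarction was made by coronary ligation, and the age of the mice is not given in the sources used here. All mice had received an intravenous CD45.2 antibody, and cells that it stained were sorted away. The protocol names a step that reduced neutrophils, aimed at early time points, without saying which libraries it covers. The steady-state library carries the same condition label as the infarcted ones but is given as steady state by its time point and as non-infarcted by the protocol. In infarcted hearts the infarct, its border and adjacent muscle were digested together. A CD11b+ myeloid pool of hashtagged cells from day 1 (5 mice), day 3 (5 mice) and day 5 (3 mice), on another chemistry, served as an outside comparison. With 1 library per time point there is no replicate, so intervals cover counting error only and no p-value is given against steady state.

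Heart macrophages that are seeded early in life and renew locally are commonly recognised by Timd4, a receptor for phosphatidylserine on dying cells, Lyve1, a hyaluronan receptor, and Folr2, a folate receptor. Cbr2, a carbonyl reductase, is another transcript of such tissue macrophages. They are known for clearing dying cells and debris. After infarction they are joined by macrophages derived from blood monocytes, which can take on some of the same transcripts.

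Rule cells made up most of the steady-state leukocytes and few of those after infarction. At steady state they were 447 of 645 kept barcodes, 69.3% (exact Clopper-Pearson 95% interval 65.6 to 72.8%). At day 1 they were 10 of 527, 1.90% (0.914 to 3.46%). At day 3 they were 57 of 848, 6.72%, at day 5 137 of 948, 14.5%, and at day 7 133 of 1795, 7.41%. Each infarct library thus had a share far below steady state. These are shares of the cells sorted and loaded, so they cannot be told apart from the arrival of other leukocytes or the neutrophil step. Among C1q+ cells alone the shares were 70.5% at steady state, 17.2% at day 1, 12.9% at day 3, 17.5% at day 5 and 19.6% at day 7.

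Depth moved with the selection. The median UMIs of rule cells were 7922 at steady state, 5364 at day 1, 16779 at day 3, 12742 at day 5 and 11580 at day 7. When every cell was thinned to 2000 UMIs, leaving out 36 shallower barcodes at steady state and 38 at day 1, the rule found 255 of 609 cells at steady state (41.9%), 2 of 489 at day 1 (0.409%), 7 of 848 at day 3 (0.825%), 13 of 948 at day 5 (1.37%) and 62 of 1795 at day 7 (3.45%). The steady-state share stayed far above the others, while the order of days 5 and 7 turned around. Of C1q+ cells in the thinned data, rule cells were 43.5% at steady state, 5.13% at day 1, 2.62% at day 3, 2.15% at day 5 and 9.28% at day 7.

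The label of these cells did not hold at days 3 and 5. At least 1 UMI of Lyve1 or Timd4 was found in 284 of 447 rule cells at steady state (63.5%), 8 of 10 at day 1, 4 of 57 at day 3 (7.02%), 8 of 137 at day 5 (5.84%) and 59 of 133 at day 7 (44.4%). Lyve1 was present in 51.9% of rule cells at steady state, 60% at day 1, 7.02% at day 3, 4.38% at day 5 and 43.6% at day 7. Timd4 was present in 36.2%, 40%, 3.51%, 3.65% and 12.8% in the same order. Folr2 was present in 90% or more of rule cells in every library, and Cbr2 in 93.5% at steady state but 52.6% at day 3. Of the 194 rule cells of days 3 and 5, only 12 had either Lyve1 or Timd4, although these cells were the deepest. They are therefore called rule cells here, and the 363 cells with a Lyve1 or Timd4 UMI are given apart.

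**Figure D1:**
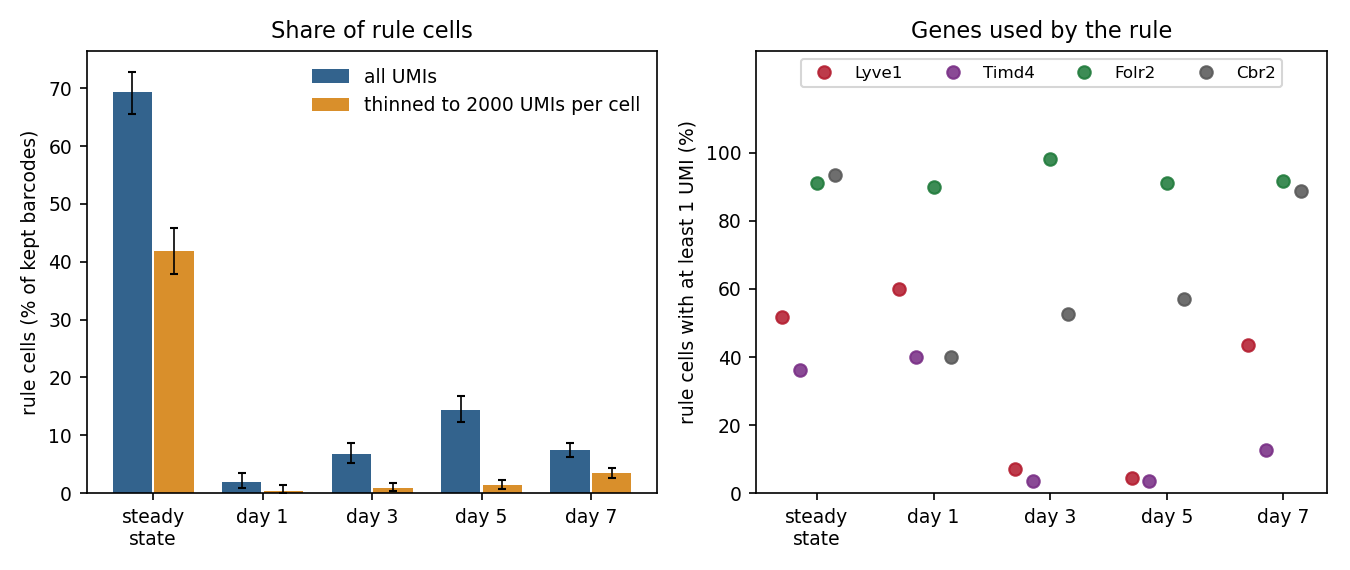
Left, share of rule cells among kept barcodes in each library (%, bars) with exact 95% binomial intervals, at all UMIs and thinned to 2000 UMIs per cell. Right, percent of rule cells with at least 1 UMI of each of the 4 genes: Folr2 stays near the top while Lyve1 and Timd4 lie under 10% at days 3 and 5.

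Cells just inside and just outside the threshold were numerous. C1q+ cells with 3 marker UMIs numbered 63 at steady state, 0 at day 1, 13 at day 3, 39 at day 5 and 35 at day 7, against 56, 2, 24, 62 and 61 with 2 marker UMIs. The median rule cell had 10 marker UMIs at steady state, 5 at days 1 and 3, 4 at day 5 and 8 at day 7. Other macrophage genes were present in most rule cells of each library: Csf1r, the receptor for the growth factor CSF1, was detected in 90% to 98.2% of rule cells, and Cd68 in 90% to 98.2%.

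B cells were many in the day 7 library. Cells with at least 3 Cd79a UMIs, mostly B cells, numbered 10, 5, 3, 28 and 1049 in order of time. At day 7, 75.9% of them had 3 or more C1q UMIs and 50 (4.77%) had 3 or more marker UMIs, at a median of 2879 UMIs per cell. Of the 133 rule cells of day 7, 40 had 3 or more UMIs of B cell markers, and 4 of 10 at day 1 and 8 of 57 at day 3 had 3 or more of neutrophil markers. Scrublet marked 15 of 4763 barcodes (0.315%) as doublets, 3 of them rule cells, too few to serve as a doublet removal, so none was removed. Pairs of CD45+ libraries shared 0 to 2 kept barcodes, 13 in all, and no rule cell was among them.

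UMIs were summed over the rule cells of each library and expressed as counts per 1000000 UMIs (CPM). A gene was called past the 2-fold rule if it had at least 20 UMIs over both sums, a ratio of at least 2 and an exact 95% interval of the ratio excluding 1. All 4 comparisons share the steady-state library. The rule called 776 of 8129 genes at day 1 (9.55%), 1883 of 8627 at day 3 (21.8%), 2039 of 9013 at day 5 (22.6%) and 1211 of 8883 at day 7 (13.6%). At day 1 the 10 cells held 71636 UMIs in all, and the split was 471 higher and 305 lower. That split turned to 345 higher and 477 lower with TMM scaling, which shifted all day 1 log2 ratios by -0.28. Under TMM the list of receptors for dying cells at day 3 went from 7 higher and 5 lower to 6 and 6. The complement list at day 1 went from 1 and 0 to 1 and 1, and the inflammatory cytokine list at day 3 from 4 and 4 to 4 and 5. The other lists kept the direction that held more calls.

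MHC class II genes, which present antigen to helper T cells, were below steady state in rule cells at all 4 days. H2-Aa, encoding a class II alpha chain, stood at 8418 CPM at steady state, 181 at day 1, 120 at day 3, 899 at day 5 and 1496 at day 7. H2-Eb1, encoding a beta chain, stood at 6180, 69.8, 52.8, 441 and 999 CPM in the same order. Both were lowest at days 1 and 3 and had not returned to the steady-state level by day 7. The log2 ratio of H2-Aa to steady state was -5.54 at day 1 (95% interval -6.44 to -4.76), -6.13 at day 3, -3.23 at day 5 and -2.49 at day 7 (-2.55 to -2.43). Ciita, the transcriptional coactivator on which class II genes depend, had 62 UMIs in rule cells at steady state and 0, 0, 1 and 0 afterwards. The day 1 sum held 71636 UMIs in all against 3646688 at steady state. It was too small to show a loss of Ciita, which was not called lower at day 1. Of the 10 genes on the class II list, 6, 10, 8 and 7 were lower past the rule at days 1, 3, 5 and 7, against 3.75%, 12.7%, 13.1% and 8.30% of all genes tested called lower. At day 7 H2-Oa and H2-DMb2, which control peptide loading and are prominent in B cells, were higher past the rule: H2-DMb2 stood at 22.8 CPM at steady state and 55.9 at day 7, and at 700 CPM in the B cells of that library.

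At day 7 H2-Aa was below steady state in rule cells with and without Lyve1 or Timd4. H2-Aa was 6856 CPM at steady state and 1394 at day 7 in those with either gene, and 11840.5 and 1558 in those without. At day 5 it was 4417 CPM over the 8 cells with either gene and 682 CPM over the 129 without, and those 8 cells are few. In C1q+ cells with fewer than 3 marker UMIs H2-Aa was 10393 CPM at steady state, 541 at day 1, 1509 at day 3, 3305 at day 5 and 4586 at day 7. After infarction these marker-low cells stood above the rule cells of the same library each time. The B cells of day 7 held 5666 CPM of H2-Aa, and the part of their RNA in the day 7 level was not tested.

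The stretch just before the start sites of H2-Aa and H2-Eb1 is shown because both genes were lower at all 4 days. RefSeq (GRCm38.p6) gives the 250 bases upstream, on the minus strand at chr17:34287824-34288073 for H2-Aa and on the plus strand at chr17:34305617-34305866 for H2-Eb1. Capitals mark CTGATTGG, the Y box core of class II promoters, searched on both strands (its reverse is CCAATCAG). The letters begin 51 bases before the start of H2-Aa and 62 before that of H2-Eb1.
H2-Aa: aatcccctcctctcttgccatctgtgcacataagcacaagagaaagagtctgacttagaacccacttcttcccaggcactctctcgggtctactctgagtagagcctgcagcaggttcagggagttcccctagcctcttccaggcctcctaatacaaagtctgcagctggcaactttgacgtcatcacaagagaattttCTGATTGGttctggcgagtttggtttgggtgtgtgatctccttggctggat
H2-Eb1: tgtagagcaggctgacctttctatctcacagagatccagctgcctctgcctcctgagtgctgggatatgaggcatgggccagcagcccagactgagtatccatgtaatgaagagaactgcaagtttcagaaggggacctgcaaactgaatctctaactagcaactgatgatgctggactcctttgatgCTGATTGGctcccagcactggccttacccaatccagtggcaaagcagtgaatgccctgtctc
In 300-base windows (the 250 bases and the first 50 of the transcript) 4.10% of 32851 RefSeq promoters hold the motif. Of the 7 class II list genes in the table, 3 hold it: H2-Aa, H2-Eb1 and H2-Oa. A match describes letters, not a site that was used, and the motif was chosen with the levels known.

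**Figure D2:**
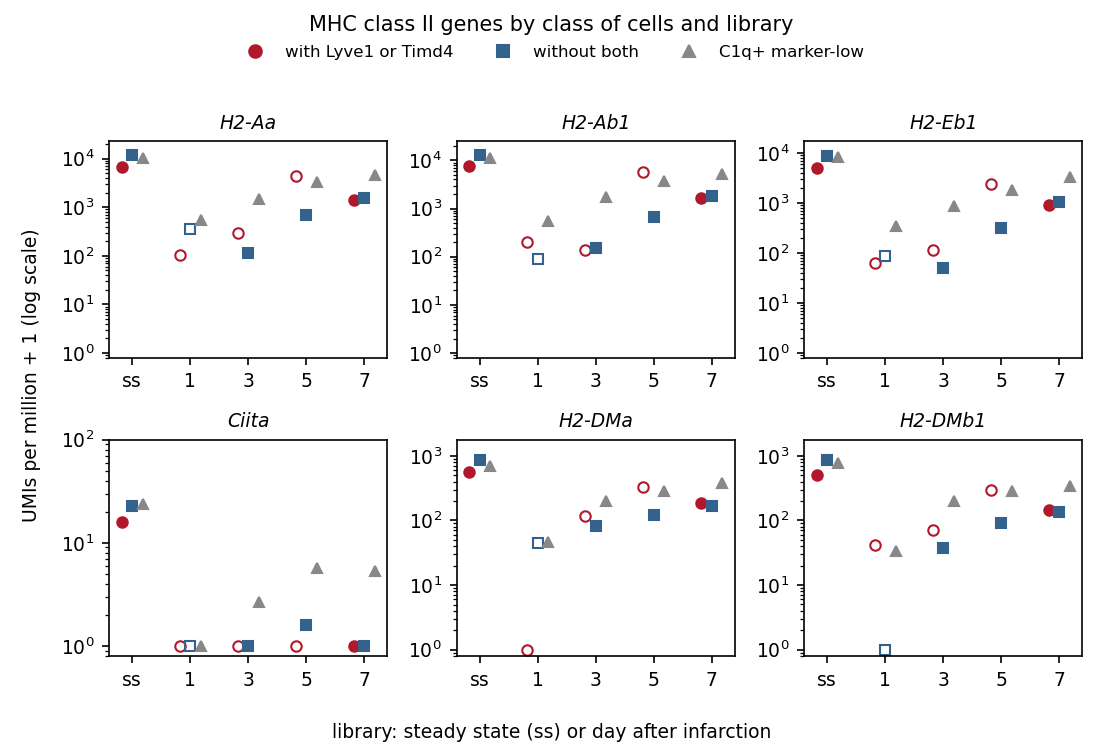
CPM plus 1 (log scale) of 6 class II genes in each library, for rule cells with Lyve1 or Timd4 (circles), without either (squares) and C1q+ marker-low cells (triangles). Open symbols are sums of under 20 cells. Steady state lies highest for H2-Aa, H2-Ab1 and H2-Eb1 in all 3 classes.

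The 30 further genes of resident tissue macrophages, none of them used by the rule, were mostly below steady state at days 3 and 5. Past the rule, 14 were lower at day 1, 22 at day 3, 18 at day 5 and 10 at day 7, against 3.75%, 12.7%, 13.1% and 8.30% of all genes tested. In the same order 4, 0, 0 and 2 were higher, against 5.79%, 9.09%, 9.52% and 5.34% of all genes tested. The list median log2 ratio was -0.48, -2.03, -1.69 and -0.52, beside 0, -0.02, 0.01 and -0.03 over all genes tested. Cd163, the haemoglobin scavenger receptor, stood at 229 CPM at steady state, 698 at day 1, 31.7 at day 3, 14.3 at day 5 and 115 at day 7. It was high at day 1 and low at days 3 and 5. Mgl2, a galactose-binding lectin, was 816, 168, 8.44, 7.16 and 73.4 CPM in the same order. Ccl24, a chemokine for eosinophils, was 587, 754, 7.39, 56.7 and 139 CPM. At day 1, 50 of its 54 UMIs lay in 1 cell. Retnla, which encodes a secreted resistin-like protein, was 702 CPM at steady state, had 0 UMIs at days 1, 3 and 5 and was 9.10 CPM at day 7.

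Rule cells with Lyve1 or Timd4 held more of several of these transcripts than those without, at steady state and at day 7, with no test of the difference. Vsig4, a complement receptor, stood at 71.1 CPM at steady state and 415 CPM at day 7 in cells with either gene, and at 10.5 and 21.9 CPM in those without. Fcna, a secreted lectin of the complement pathway, stood at 121 and 429 CPM against 17.5 and 33.3 CPM. Cd163 was 276 and 261 CPM against 125 and 27.1 CPM. At day 3 Vsig4 was 231 CPM over the 4 cells with either gene and 6.63 CPM over the other 53, and Cd163 115 and 27.6 CPM. Of the 16 Vsig4 UMIs of day 3, 10 lay in 1 cell. The 4 cells with either gene are too few to carry more than these values. Pf4, a chemokine of platelets and macrophages, stood at 3914 CPM at day 7 with either gene and 2873 CPM without, and in rule cells as a whole it lay between 3128 and 3814 in all libraries but day 1.

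**Figure D3:**
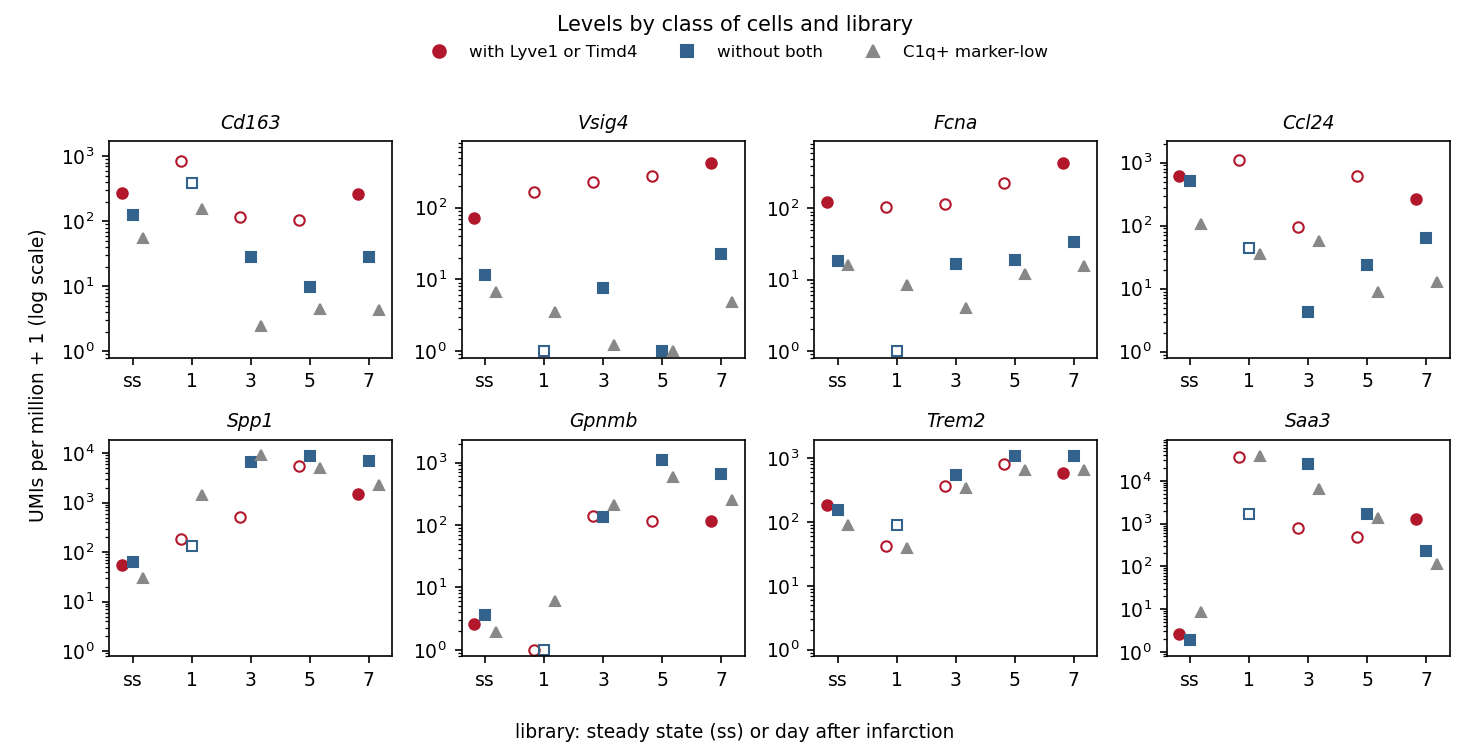
CPM plus 1 (log scale) of 8 genes in each library, for rule cells with Lyve1 or Timd4 (circles), without either (squares) and C1q+ marker-low cells (triangles). Open symbols are sums of under 20 cells. Vsig4 and Fcna are highest in cells with Lyve1 or Timd4, and Gpnmb lies higher in the other 2 classes at days 5 and 7.

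Most tested genes of a list on lipid-handling macrophages were higher past the rule at days 3, 5 and 7. Of the 17 on that list, 14 could be tested at day 1 and 16 at the other days. Past the rule, 4, 9, 12 and 10 were higher at days 1, 3, 5 and 7, against 5.79%, 9.09%, 9.52% and 5.34% of all genes, and 4, 3, 1 and 1 were lower. Apoe, which encodes a lipid carrier, was lower at days 1 and 3, and the list summed to 32742 CPM at steady state, 29334 at day 3 and 61962 at day 5. Gpnmb, a lysosomal glycoprotein, stood at 1.92 CPM at steady state, 0 at day 1, 134 at day 3, 1035 at day 5 and 448 at day 7. Spp1, which encodes osteopontin, stood at 57.3, 168, 6359, 8511 and 4885 CPM in the same order. Trem2, a lipid-sensing receptor, was 171, 55.8, 531, 1042 and 895 CPM. These 3 were highest at day 5, where Gpnmb was found in 100 of 137 rule cells. At day 5 their log2 ratios to steady state were 9.07 for Gpnmb (8.03 to 10.39), 7.21 for Spp1 and 2.61 for Trem2. Apart from Fabp4, a fatty acid binding protein also made by endothelium, no list gene was lower at day 5.

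Spp1 was also high in marker-low C1q+ cells. It stood at 9418 CPM in them at day 3 and 5129 at day 5, against 6359 and 8511 in rule cells. At day 7 Spp1 was 1533 CPM in rule cells with Lyve1 or Timd4 and 1553 CPM in B cells, and Gpnmb was 114 and 145 CPM. These levels in cells with Lyve1 or Timd4 did not stand above those in B cells, and whether they are those cells' own expression was not tested. Free RNA and doublets were not told apart. Rule cells without Lyve1 and Timd4 stood at 6905 CPM of Spp1 and 649 CPM of Gpnmb at day 7, above the levels in B cells.

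Of 21 cathepsins and lysosomal proteins, most were higher past the rule at day 5 alone, 14 of 21 tested. At day 3, 4 of 20 and at day 7, 6 of 20 were higher, and none was lower at days 3, 5 and 7. At day 1, 1 of 19 was higher and 3 were lower. Of all genes tested, 5.79%, 9.09%, 9.52% and 5.34% were called higher at days 1, 3, 5 and 7, and 3.75%, 12.7%, 13.1% and 8.30% lower. Ctsd, which encodes cathepsin D, was 613 CPM at steady state, 377 at day 1, 3824 at day 3, 5667 at day 5 and 4335 at day 7. Ctsl, which encodes cathepsin L, was 282, 1466, 1309, 1759 and 1461 CPM, high in all 4 infarct libraries. Receptors and bridging proteins for dying cells were split: at day 3, 7 of 19 tested were higher, with Thbs1 and Tgm2, and 5 were lower, with Mertk, Axl and Gas6. That split was 6 and 6 with TMM scaling.

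**Figure D4:**
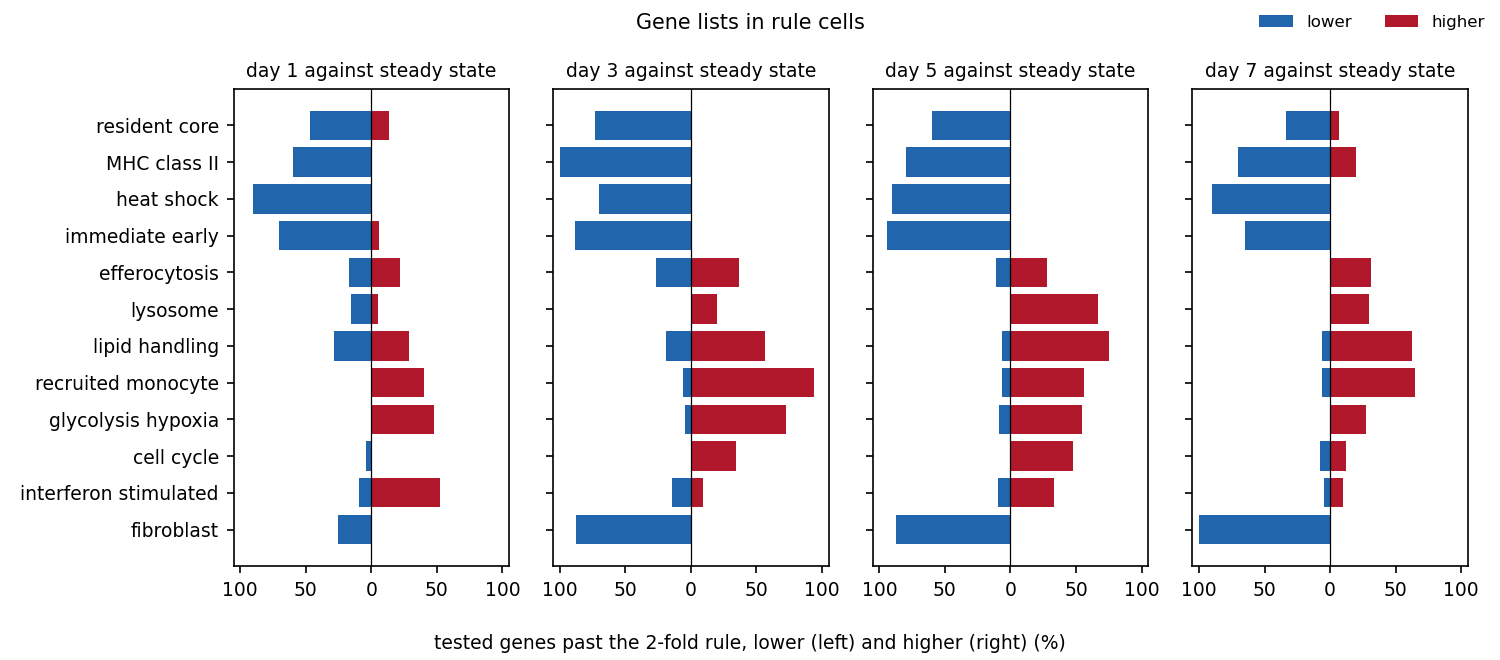
Percent of each list's tested genes that passed the 2-fold rule against steady state in rule cells, lower to the left and higher to the right, for days 1, 3, 5 and 7. Class II and heat shock lists lie mostly to the left on every day, and the lipid handling list lies mostly to the right from day 3.

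The acute-phase gene Saa3 stood above steady state on all 4 days. At day 1 all 10 rule cells had a Saa3 UMI, and 2 cells held 724 and 432 of the 1769. At day 5, 2 of 137 cells held 1000 and 773 of its 2976 UMIs. At day 7, 1 cell held 261 of 979 UMIs, and 50 of 133 cells had any. Saa3 stood at 1.37 CPM at steady state, 24694 at day 1, 24312 at day 3, 1639 at day 5 and 636 at day 7. At day 1 it stood at 37516 CPM in marker-low C1q+ cells and 27818 CPM in cells classed as neutrophils, and the part of their RNA was not tested. In the CD11b+ pool it stood at 185 CPM in rule cells of day 3, far below the CD45+ library of that day. Arg1, which encodes arginase, was 0.274 CPM at steady state and 3001 at day 1, but 210 of its 215 UMIs came from 1 cell. That barcode also held 630 of 634 UMIs of Ppbp, a platelet chemokine, 138 of 141 of Csf3, a granulocyte growth factor, and all 64 of Cxcl5, a neutrophil attractant. Of the 905 Pf4 UMIs of day 1, 811 lay in 1 cell. Without the barcode with most Ppbp UMIs, a choice made after seeing the data, 666 of 8113 genes were called at day 1, and of the 12 genes named by the rule for that day 9 remained, with Saa3 at 32451 CPM and Slpi, a protease inhibitor, at 485 CPM. Cxcl5, Arg1 and Csf3 then had too few UMIs to be tested. Arg1 at day 3 did not rest on 1 cell: it was found in 45 of 57 cells, at 1260 CPM.

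Chemokines and interferon-stimulated genes were high at day 1 in these few cells. Of 19 chemokines tested, 11 were higher and 2 lower, against 5.79% and 3.75% of all genes at day 1. Pf4, with 811 of its 905 UMIs in 1 cell, is among the 11. The barcode with most Ppbp UMIs held 18079 of the 71636 UMIs of day 1. No list count of day 1 was repeated without that barcode, which lacked Lyve1 and Timd4. The chemokine list summed to 103009 CPM over the 8 cells with Lyve1 or Timd4 and 137946 CPM over the 2 without. Ccl2, a monocyte attractant, stood at 1881 CPM at steady state, 10009 at day 1, 1855 at day 3, 1814 at day 5 and 2528 at day 7. Of 21 interferon-stimulated genes 11 were higher at day 1, among them Ifit1 at 12.9 CPM at steady state and 670 at day 1, and 2, 7 and 2 were higher at days 3, 5 and 7. In that list 2, 3, 2 and 1 were lower at days 1, 3, 5 and 7. Over all genes, 5.79%, 9.09%, 9.52% and 5.34% were called higher and 3.75%, 12.7%, 13.1% and 8.30% lower. The interferon counts of days 3 and 7 lay near these shares. Ccl8, another monocyte attractant, had the opposite course: 90.5 CPM at steady state, 14.0 at day 1, 217 at day 3, 1745 at day 5 and 546 at day 7. It was highest at day 5, in 109 of 137 cells.

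Glycolysis genes were called higher in 10 of 21 tested at day 1, 16 of 22 at day 3, 12 of 22 at day 5 and 6 of 22 at day 7. At day 1 the list summed to 4709 CPM over the 8 cells with Lyve1 or Timd4 and 10300 CPM over the 2 without. The shares of all genes called higher were 5.79%, 9.09%, 9.52% and 5.34% on those days. Pkm, which encodes pyruvate kinase, was 278, 1075, 1278, 954 and 606 CPM in that order, highest at day 3. Genes of DNA replication and mitosis were called higher in 8 of 23 at day 3 and 12 of 25 at day 5, and in 3 of 25 at day 7. Top2a, a DNA topoisomerase of dividing cells, was 15.9, 0, 19.0, 40.2 and 9.75 CPM, high at day 5 alone. Stmn1, a regulator of microtubules, was 134, 55.8, 167, 363 and 124 CPM. The level of these genes is a sum, and no count of cycling cells was made.

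Recruited-monocyte genes were called higher in 6 of 15 tested at day 1, 15 of 16 at day 3, 9 of 16 at day 5 and 11 of 17 at day 7, against 5.79%, 9.09%, 9.52% and 5.34% of all genes. Ly6c1, also an endothelial gene, was the one gene lower at days 3, 5 and 7. Chil3, a chitinase-like protein of monocytes and macrophages, was 8.78, 237, 476, 158 and 47.4 CPM at steady state and days 1, 3, 5 and 7. Ccr2, the receptor for Ccl2, was 36.2, 14.0, 136, 72.1 and 87.7 CPM in the same order. Marker-low C1q+ cells of day 3 stood above both, at 2426 CPM of Chil3 and 264 CPM of Ccr2. Of the 13 neutrophil markers, the summed level in rule cells was 162 CPM at steady state, 3699 at day 1, 930 at day 3, 370 at day 5 and 270 at day 7, and its part in the monocyte and Saa3 results was not tested.

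Most heat shock and immediate early genes were lower on every day. Of 10 heat shock genes 9, 7, 9 and 9 were lower past the rule, and of 17 immediate early genes tested 12, 15, 16 and 11. The shares of all genes called lower were 3.75%, 12.7%, 13.1% and 8.30% at days 1, 3, 5 and 7. Ier3, an early response gene, was higher at day 1. Hspa1a, which encodes an inducible HSP70 chaperone, stood at 3087 CPM at steady state, 1256 at day 1, 319 at day 3, 155 at day 5 and 200 at day 7. Fos, an immediate early transcription factor, stood at 2730, 865, 807, 1190 and 1283 CPM. Both lists respond to tissue digestion, and marker-low C1q+ cells moved with them: Hspa1a there was 2891 CPM at steady state and 179 at day 5. Handling and time point cannot be told apart.

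Endothelial, fibroblast and cardiomyocyte transcripts were highest in the rule cells of the steady-state library. The fibroblast list summed to 721 CPM at steady state, 14.0 at day 1, 323 at day 3, 289 at day 5 and 202 at day 7. Most of each sum was Gsn, at 456, 14.0, 319, 275 and 188 CPM in the same order. Gsn was found in 52 of 57 rule cells at day 3. The cardiomyocyte list summed to 196, 0, 12.7, 41.3 and 25.3 CPM. The endothelial list summed to 558 CPM at steady state and 75.4 CPM at day 7. It includes Fabp4, with 1358 UMIs in 260 of 447 rule cells at steady state and 91 UMIs in 26 of 133 at day 7. The part of rule cells' own RNA in the fibroblast and endothelial sums was not tested. Dcn, a matrix proteoglycan of fibroblasts, was 128 CPM at steady state and 1.95 at day 7, yet 1179 CPM in the marker-low cells of steady state. The lower Dcn, Aqp1 and Igfbp7 of rule cells at day 7 moved with those lists, and the part of RNA from such cells was not tested. T and NK cell and dendritic cell markers summed to 273 CPM or less in every library. B cell markers summed to 35.1 CPM at steady state and 220 CPM at day 7.

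The 59 day 7 cells and 284 steady-state cells with Lyve1 or Timd4 were also compared with each other. Their makeup differed: Lyve1 was found in 232 of the 284 and 58 of the 59, and Timd4 in 162 and 17. Lists of other cell types differed too: B cell markers summed to 33.5 CPM at steady state and 237 at day 7, endothelial to 629 and 34.6, and fibroblast to 722 and 147. Fabp4 alone held 435 and 19.0 CPM of the endothelial sums. The part of other cell types' RNA in the calls was not tested. Past the 2-fold rule, 777 of 7746 genes were called (10.0%), 343 higher (4.43%) and 434 lower (5.60%). Of the 30 resident genes 2 were higher (Fcna and Vsig4) and 8 lower, with a median log2 ratio of -0.05, beside -0.03 over all genes tested. Of 10 class II genes 7 were lower. Interferon-stimulated genes were higher in 9 of 21 and lower in 1, against that 4.43% of all genes. Fn1, which encodes fibronectin, was 20.8 CPM at steady state and 819 at day 7, a log2 ratio of 5.30 (lower bound 4.89), and stood at 165 CPM in the B cells of that day. Saa3 was 1.60 and 1305 CPM and stood at 74.6 CPM in those B cells. Its level was uneven: 755 UMIs lay in the 59 day 7 cells, and 1 cell held 261. Lif, a cytokine of the interleukin 6 family, was 0.799 and 65.7 CPM. The level of Folr2 in these cells was 1149 CPM at steady state and 1004 CPM at day 7, and Cbr2 was 881 and 971 CPM, as description only.

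In the CD11b+ pool the same rule found 27 of 495 cells of day 1, 378 of 2159 of day 3 and 626 of 1628 of day 5. At least 1 UMI of Lyve1 or Timd4 was present in 0, 15 and 18 of them, so these rule cells too mostly lacked the 2 genes. Thinned to 2000 UMIs the counts were 4, 23 and 28. The TIM4 antibody, a direct measure of the Timd4 protein, had median UMIs of 35, 31 and 29 on rule cells at days 1, 3 and 5, against 29, 29 and 28 on marker-low C1q+ cells, and the quartiles overlapped each day. CD64, an IgG receptor of macrophages, had medians of 65, 73.5 and 67 against 32, 38 and 46. Ly6C, a monocyte protein, had medians of 103, 76 and 72 against 181, 112 and 73. The quartile ranges of CD64 and Ly6C overlapped each day as well. Median CD64 on rule cells was 2.03, 1.93 and 1.46 times that on marker-low cells, and median TIM4 1.21, 1.07 and 1.04 times. As shares of each cell's antibody UMIs the ratios were 1.81, 1.95 and 1.30 for CD64 and 1.14, 1.07 and 0.986 for TIM4. Median Ly6C was lower on rule cells at days 1 and 3. These are medians over cells of 1 pool, with no test.

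Summed rule cells of both experiments allowed a test between days. The sum of CD45+ day 1 held 10 cells, under the minimum of 20, and was left out, so the fit had 5 sums and 1 residual degree of freedom, with day and experiment as terms. In edgeR's quasi-likelihood test with Benjamini-Hochberg adjustment, 43 of 9123 genes differed between day 5 and day 3 (0.471%), 31 higher (0.340%) and 12 lower (0.132%) at day 5. Id3, a transcriptional inhibitor, rose by 1.51 on the log2 scale (SE 0.17, edgeR adjusted p = 0.0022) and Gdf15, a stress-induced cytokine, by 1.73 (SE 0.25, edgeR adjusted p = 0.010). Ccl6, a chemokine, fell by 1.43 (edgeR adjusted p = 0.0094). These 3 kept their calls in DESeq2 and without the pool sum of day 1. Chil3 fell by 1.14 (edgeR adjusted p = 0.023), and the call was lost without that sum (edgeR adjusted p = 0.052) but not in DESeq2. The calls of 4 other genes were lost both in DESeq2 and without that sum. Gpnmb had a log2 change of 1.92 (SE 0.34, edgeR adjusted p = 0.028), 2.98 in the CD45+ libraries and 1.02 in the pool, and an adjusted p of 0.749 in DESeq2 and 0.078 in edgeR without the pool sum of day 1. Ccl8 changed by 1.92 (SE 0.36, edgeR adjusted p = 0.045, with 0.641 and 0.103 in the same alternatives). Igf1, a growth factor, changed by 1.75 (SE 0.30, edgeR adjusted p = 0.024, with 0.409 and 0.064). Saa3 changed by -2.65 (SE 0.43, edgeR adjusted p = 0.022, with 0.321 and 0.057). RLE scaling also ended the edgeR calls of Gpnmb (adjusted p = 0.054) and Ccl8 (adjusted p = 0.073), and a minimum of 5 marker UMIs those of Ccl8 and Chil3 (edgeR adjusted p = 0.081 for each). Each moved the same way in both experiments, as the rule for naming them required. Without the experiment term no gene passed, with 55 at an unadjusted p under 0.05, and DESeq2 called 29.

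The comparisons with day 1 rest on the lone pool sum of 27 cells, assumed to vary like the others. They gave 309 genes at day 3 (3.39%) and 716 at day 5 (7.85%). Cd163 fell by 4.71 on the log2 scale from day 1 to day 3 (SE 0.22, edgeR adjusted p = 3.9e-07), from 434 to 16.8 CPM in the pool. Fabp4 rose by 4.49 from pool day 1 to day 3. Mmp12, a macrophage elastase, rose by 7.56, from 1.06 to 255 CPM in the pool.

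Whether the change from day 3 to day 5 differed between rule cells and marker-low C1q+ cells was tested by a class by day term over 10 sums, again with 1 residual degree of freedom. edgeR called 143 of 11324 genes (1.26%) and DESeq2 called 7, and without the class by experiment term edgeR called 12. The genes called by both tools included Ccl8, which stood at 217 CPM at day 3 and 1745 at day 5 in CD45+ rule cells and at 9.45 and 331 CPM in marker-low cells. Its difference in log2 change was -1.87 (SE 0.17), and rule cells stood above marker-low cells at both days.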

How the data were processed

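The data were 10x Genomics single-cell RNA counts. The authors deposited, for each barcode, UMI counts of each gene, made with Cell Ranger (build mm10, per the submitters' processing notes), and version 3.0.2 is given per the file headers of the CD11b+ pool. The values are not normalized. The pool's antibody and hashtag counts are also UMI counts in the deposited matrix. The annotation and cell-calling settings are not given in the sources used here.

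Hashtag days were called with a 2-part Gaussian mixture (scikit-learn 1.9.0), leaving barcodes with 1 positive hashtag. UMIs were summed over rule cells per library and compared as CPM with exact binomial intervals. A level of 0 was bounded at 3 counts. Sums of at least 20 cells were fitted with edgeR 4.0.16 and, as an alternative, DESeq2 1.42.0. The steps were tested on simulated data with known changes. Simulated sums against steady state varied by counting error only, and those for edgeR held no difference between experiments. They do not show how the calls fare where 1 cell holds most UMIs of a gene. Members and gene lists were chosen with earlier results of these data known. Named genes were, per day, the 6 highest and 6 lowest ratios of at least 50 CPM that other cell types of that library did not exceed 5-fold; mitochondrial, ribosomal, haemoglobin and predicted genes and the genes of the rule were left out. For edgeR they were the 5 highest and lowest changes that went the same way in both experiments. Against day 1 only the pool had a sum, so that agreement could not be checked there. Hearts were pooled within each library, so p-values measure only the spread between these sums.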

Additional observations from a re-analysis of the deposited data

Results flagged for a closer look

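In 6 named genes the change from day 3 to day 5 differed between rule cells and C1q+ marker-low cells by the class by day test of edgeR and also by DESeq2. The difference in log2 change (rule cells minus marker-low cells) was -3.57 for Ctsk, a bone and matrix cathepsin. In the CD45+ libraries Ctsk went from 1.06 to 16.0 CPM in rule cells and from 7.98 to 379 CPM in marker-low cells. The 1.06 CPM lies under 3 counts. In the pool Ctsk went from 10.6 to 16.8 CPM and from 16.4 to 351 CPM. The difference was -1.87 for Ccl8, -1.64 for Acp5, a phosphatase of macrophages and osteoclasts, and -1.65 for Mmp9, a gelatinase. S100a8 and S100a9, calcium-binding proteins abundant in neutrophils, had differences of 1.48 and 1.52, and stood lower at day 5 than at day 3 in marker-low cells of both experiments. In rule cells the 2 experiments went opposite ways. S100a8 went from 270 to 158 CPM in the CD45+ libraries but from 72.1 to 121 in the pool, and S100a9 from 117 to 83.7 but from 71.2 to 123. Acp5 in rule cells also split, from 157 to 114 CPM and from 111 to 126. The spread behind these calls rests on 1 residual degree of freedom.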

How the results depend on the processing

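No paired analysis was possible because each time point has 1 library, all numbered 1, so the groups share fewer than 2 replicate numbers. The experiment term is a block of experiment, not of replicates. With 2 marker UMIs the shares of rule cells were 78.0% at steady state, 9.55% at day 3, 21.0% at day 5 and 10.8% at day 7, and with 5 they were 52.9%, 3.77%, 7.17% and 4.85%. Without Cbr2 they were 49.6%, 5.07%, 10.5% and 5.18%. Thinned to 2000 UMIs they were 41.9%, 0.409% (day 1), 0.825%, 1.37% and 3.45%. Leaving out cells with other markers gave 5.07% at day 7. Added after seeing the data, asking for Lyve1 or Timd4 as well gave 44.0%, 0.472% at day 3, 0.844% at day 5 and 3.29% at day 7, leaving neutrophils out of the denominator gave 5.65% at day 1, and no Cd79a limit gave 10.2% at day 7.

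Against steady state, thinning lowered the calls to 110, 163, 195 and 273 at days 1, 3, 5 and 7. Leaving out cells with other markers gave 500 at day 1, and a minimum of 50 UMIs gave 793 at day 7. Also added after seeing the data, only cells with Lyve1 or Timd4 gave 492, 685 and 777 at days 3, 5 and 7, and only cells without gave 420 at day 1. Cd209a at day 5 turned to 1.49 when thinned. The cause was not tested.

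Between days, DESeq2 gave 85 (day 3 against 1) and 269 (day 5 against 1). No filter on low counts gave 657 for day 3 against 1 and 261 for day 5 against 3. Without the experiment term all 3 comparisons gave 0, with 341, 567 and 55 genes at an unadjusted p under 0.05 (edgeR), and Saa3 and Wfdc21 turned to 1.66 and 0.92 for day 3 against 1. Only the sums of days 3 and 5, the same as leaving out the pool of day 1, gave 19. Other left-out sums leave no residual degrees of freedom, and the thinned fit was not run because only 2 sums kept 20 cells. For the class by day term, DESeq2 gave 7, 30 and 7 and no class by experiment term gave 14, 67 and 12 (day 3 against 1, day 5 against 1, day 5 against 3). Other settings kept shares within their intervals and counts within 1.5 times. For named genes, 403 alternatives kept the call, 100 lost it and 3 reversed the sign. Depth limits day 1 most: 10 rule cells, where a gene below 41.9 CPM lies under 3 counts.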

Other observations

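Haem and iron genes were split in rule cells. Of 14 tested, 4, 3, 5 and 1 were higher and 2, 4, 3 and 2 lower at days 1, 3, 5 and 7. Over all genes, 5.79%, 9.09%, 9.52% and 5.34% were called higher and 3.75%, 12.7%, 13.1% and 8.30% lower. The day 7 counts lay near these shares. Hmox1, which encodes the haem-degrading enzyme, stood at 1018 CPM at steady state, 3127 at day 1, 1883 at day 3, 1766 at day 5 and 900 at day 7. It was called higher at day 1 alone, in the library with 10 rule cells. Spic, a transcription factor of iron-recycling macrophages, stood at 53.7, 223, 10.6, 18.7 and 20.1 CPM in the same order. Of 13 metal-binding and antioxidant genes tested, 8 were higher at day 1, 7 at day 3, 5 at day 5 and 4 at day 7, against 5.79%, 9.09%, 9.52% and 5.34% of all genes, and 1, 2, 2 and 1 were lower. The metallothioneins Mt1 and Mt2, which bind metal ions, were higher at day 1 and lower at days 3 and 5, and Mt1 was lower at day 7. Of 23 transcription factors tested at day 1, 4 were higher and 7 lower, and of 24 tested later, 1 was higher and 8 lower at day 3, 4 and 8 at day 5 and 3 and 2 at day 7. The count higher at day 3 and the count lower at day 7 did not clearly exceed the shares over all genes given above. Named after their values were seen, Nr1h3, a sterol sensor, was called higher at days 3, 5 and 7, while Klf4 was called lower at all 4 days and Mef2c at days 1, 3 and 5.

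The pool of day 1 rule cells held 434 CPM of Cd163 and 1031 CPM of Ccl24 but 0 UMIs of Lyve1 and Timd4. The few CD45+ rule cells of day 1 held 698 and 754 CPM of the same genes, with Lyve1 at 223 CPM. Of their 54 Ccl24 UMIs 50 lay in 1 cell, so that level rests on 1 barcode.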
